A study of Mus musculus with 6 samples.

Results

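The genes described here encode collagens, laminins and a set of other matrix glycoproteins, the proteins that cells secrete to build the scaffold around them. Their members were set by a rule on gene symbols, chosen with earlier results of these data known. It takes every collagen chain gene (symbols of the form Col1a1), every laminin chain gene (Lama, Lamb or Lamc with a number) and 18 named glycoproteins and proteoglycans. The rule gave 73 of the 26214 genes listed, made up of 44 collagen genes, 11 laminin genes and the 18 others. RNA was sequenced from immortalized mouse brown preadipocytes, the precursors of heat-producing fat cells, after differentiation in culture with insulin, triiodothyronine, methylisobutylxanthine, dexamethasone and indomethacin. On day 7, cells received either DMSO, the solvent, or 100 nM rotenone, which blocks complex I of the mitochondrial respiratory chain, for 16 h. Both groups share the immortalization, no other genetic change is named, and the sources used here do not say whether the line is 1 clone. Each group had 3 deposited files, but the 3 rotenone files held the same count for all 26214 genes and were used as 1 library. Each comparison sets that single library against the 3 from DMSO, the only group with a measured spread. P-values therefore measure how much these DMSO libraries vary, which may be technical.

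Fibrillar collagens (types I, II, III, V, XI, XXIV and XXVII) assemble into the ropes that give connective tissue its strength. Basement membranes are thin sheets that wrap each fat cell; they consist of a collagen IV network and a laminin network, joined by nidogens and the proteoglycan perlecan. Laminins are trimers of an alpha, a beta and a gamma chain. Adipocytes are embedded in both kinds of matrix, and matrix remodelling accompanies the turn from preadipocyte to adipocyte.

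Total counts ran from 26085061 to 29194179 in the DMSO libraries and reached 21611589 in the rotenone library. In the rotenone library, 3 counts correspond to 0.148 CPM (counts scaled to a library of fixed size, on library sizes scaled by the TMM method, the unit of all levels here), and in the DMSO libraries to 0.101 to 0.112 CPM; such a floor covers counting error only. Fat cell markers were abundant in every library: each of the 10 on the marker list had a mean of at least 5 CPM. Their changes with rotenone are given with the other marker lists.

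Col4a1 and Col4a2, whose products twist together into the common collagen IV trimer, lie head to head on chromosome 8 (GRCm38: Col4a1 at 11198423 to 11312826 on the minus strand, Col4a2 at 11312805 to 11449287 on the plus strand). Their RefSeq start sites are 21 bases apart, so that their promoter windows share 78 bases. These windows are shown because the genes lie head to head, and those of the fibrillar chains Col1a2 and Col3a1 are shown beside them. Each runs 5′ to 3′ on the strand of its gene, from 250 bases before the start to 50 after it (RefSeq, GRCm38.p6): Col4a1 chr8:11312777-11313076 (minus), Col4a2 chr8:11312555-11312854 (plus), Col1a2 chr6:4505368-4505667 (plus) and Col3a1 chr1:45311288-45311587 (plus). Capitals mark matches on either strand to GGGCGG (core of a GC box), CCAAT (the CCAAT box), CAGAC (in Smad motifs), TATAAA (the TATA box) or GGAATG (in TEAD motifs); in these windows no match overlapped another.
Col4a1: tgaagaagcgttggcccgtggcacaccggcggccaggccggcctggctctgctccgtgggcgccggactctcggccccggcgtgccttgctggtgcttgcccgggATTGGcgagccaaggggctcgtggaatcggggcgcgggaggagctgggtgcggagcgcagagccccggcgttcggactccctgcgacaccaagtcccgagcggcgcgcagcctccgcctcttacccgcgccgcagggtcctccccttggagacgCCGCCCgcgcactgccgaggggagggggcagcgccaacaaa
Col4a2: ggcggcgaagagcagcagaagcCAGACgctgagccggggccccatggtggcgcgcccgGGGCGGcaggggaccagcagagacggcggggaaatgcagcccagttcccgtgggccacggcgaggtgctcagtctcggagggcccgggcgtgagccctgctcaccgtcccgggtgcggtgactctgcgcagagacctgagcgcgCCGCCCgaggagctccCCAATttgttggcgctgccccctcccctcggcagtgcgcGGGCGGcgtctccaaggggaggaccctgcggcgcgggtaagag
Col1a2: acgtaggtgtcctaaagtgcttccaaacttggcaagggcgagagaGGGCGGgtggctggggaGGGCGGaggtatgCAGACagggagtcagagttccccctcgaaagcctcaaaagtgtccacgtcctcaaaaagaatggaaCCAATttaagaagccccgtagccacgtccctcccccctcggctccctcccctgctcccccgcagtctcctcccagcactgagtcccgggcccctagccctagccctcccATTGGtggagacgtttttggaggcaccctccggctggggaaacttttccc
Col3a1: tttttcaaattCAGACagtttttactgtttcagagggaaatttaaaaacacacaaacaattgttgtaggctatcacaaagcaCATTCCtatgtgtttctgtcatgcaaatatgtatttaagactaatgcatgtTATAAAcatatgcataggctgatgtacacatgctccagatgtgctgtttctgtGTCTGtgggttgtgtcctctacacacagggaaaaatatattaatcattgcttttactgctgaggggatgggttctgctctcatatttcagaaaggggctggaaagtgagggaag
The GC box core GGGCGG was found in the windows of Col4a1, Col4a2 and Col1a2, as was CCAAT, and in these TATAAA and GGAATG were not found. The Col3a1 window held the reverse: TATAAA and GGAATG, but neither GGGCGG nor CCAAT. The only GGGCGG match of Col4a1 and 1 of the 3 of Col4a2 are the same bases, in the stretch that the windows share. Of all 32851 promoter windows in the table, 35.7% held GGGCGG, 37.4% CCAAT, 49.6% CAGAC, 13.6% TATAAA and 14.7% GGAATG. The matches are letters in a window and say nothing of what binds there.

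Matrix genes stood higher with rotenone far more often than lower. Together the 73 genes took 1.11%, 1.13% and 1.13% of all counts in the DMSO libraries and 2.09% with rotenone. Of the 73 genes, 56 had enough counts to be tested. By edgeR's quasi-likelihood test at an adjusted p under 0.05, 38 of the 56 rose and 6 fell, where 27.6% of all 14709 tested genes rose and 28.5% fell. A change of at least 2-fold was called upward for 23 members and downward for 3, against 5.53% and 11.3% of all tested genes. The median log2 fold change of the 56 was 0.91, beside -0.04 for all tested genes. The rotenone library lay above every DMSO library for 43 of the 56 members and below every one for 9, against 41.5% and 44.7% of all tested genes. One tested member, Lama1, passed the expression filter through the rotenone library only, and Col9a3 through DMSO only; without this pair 37 of 54 rose and 6 fell.

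**Figure D1:**
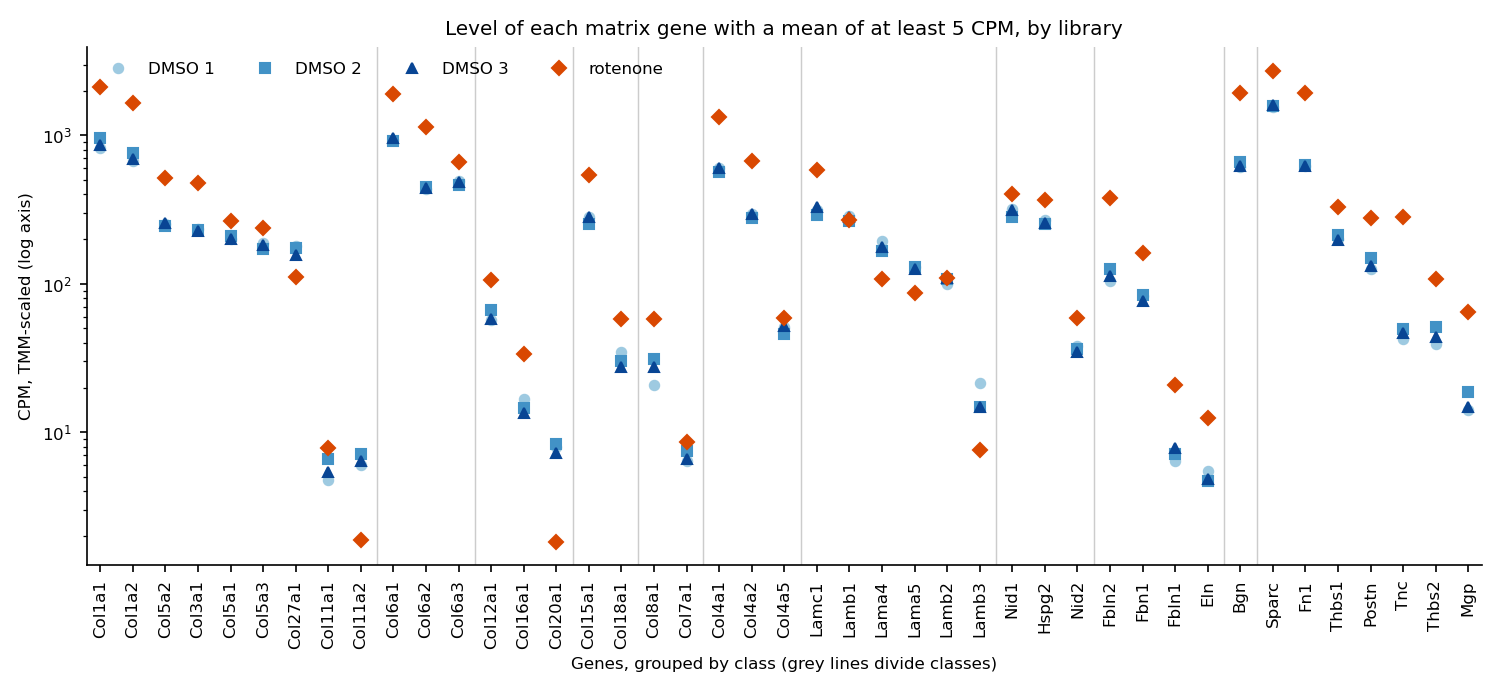
Level of each matrix gene with a mean of at least 5 CPM over the 4 libraries, on a log axis; blue points are DMSO replicates 1 to 3 and orange diamonds the rotenone library. Among these 43 genes, 33 rose, 6 fell and 4 did not pass the threshold. The share of all genes at that level that was called is not given here, so these counts have no background beside them.

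These calls assume the variation seen in DMSO for rotenone as well, a common biological coefficient of variation of 6.90%. With a coefficient of variation of 20% assumed, 27 members rose and 4 fell, where 9.57% of all tested genes rose and 14% fell. The 11 rises that were not called under that assumption were those of Sparc, Thbs1, Col12a1, Col5a1, Col5a3, Col6a3, Nid1, Nid2, Hspg2, Col4a5 and Lama2; the falls of Col27a1, Lama4 and Lama5 were not called either, and a fall of Col9a3 was called in addition (edgeR adjusted p = 0.015).

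Fibrillar collagens were mostly higher, led in abundance by the pair that makes type I collagen. Col1a1 (chromosome 11, 94936224 to 94953042, GRCm38), which encodes the alpha1 chain of type I collagen, stood at 826, 959 and 865 CPM in DMSO replicates 1, 2 and 3 and reached 2121 CPM with rotenone. The rotenone value was above every DMSO value, a log2 fold change of 1.26 ± 0.07 (SE; edgeR adjusted p = 4.1e-11). Its partner Col1a2 went from 677, 763 and 691 CPM to 1666 CPM, a log2 fold change of 1.23 ± 0.07 (edgeR adjusted p = 2.0e-11). The level of Col1a1 over that of Col1a2, per kb of longest transcript, was 1.12 ± 0.02 (SD, n = 3) in DMSO and 1.15 in the rotenone library, so the pair moved almost in step.

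Col3a1, the type III chain that runs beside type I in soft tissue, went from 232, 229 and 226 CPM to 477 CPM, a rise of 1.06 ± 0.06 on the log2 scale (edgeR adjusted p = 4.9e-11). Type V collagen nucleates type I fibrils, and its chains differed in size of change. Col5a2 rose from 255, 244 and 255 CPM to 520 CPM, by 1.05 ± 0.06 on the log2 scale. Col5a1 and Col5a3 rose less, with log2 fold changes of 0.38 ± 0.07 and 0.39 ± 0.07. After a correction for transcript length and GC content these were 0.89 and 0.90, beside 1.28 for Col5a2. Per kb, the ratio of Col5a1 to Col5a2 was 0.64 ± 0.03 (SD, n = 3) in DMSO and 0.40 with rotenone, and that of Col5a3 to Col5a2 was 0.78 ± 0.02 and 0.49.

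The remaining fibrillar chains went both ways. Col27a1, a fibril-forming chain best known from cartilage, fell from 181, 174 and 156 CPM to 111 CPM, below every DMSO library (log2 fold change -0.62 ± 0.08; edgeR adjusted p = 4.6e-06). After a correction for transcript length and GC content its value was -0.10 with an adjusted p of 0.29, no longer called. Col11a2, a chain of the type XI collagen of cartilage, fell from 6.04, 7.13 and 6.36 CPM to 1.87 CPM (-1.80 ± 0.29; edgeR adjusted p = 2.7e-05). Col2a1, the main cartilage collagen, rose from 12, 13 and 6 counts to 65 counts, or from 0.360 ± 0.119 CPM (SD, n = 3) to 3.20 CPM, and stayed scarce. Col11a1 had a log2 fold change of 0.48 ± 0.23 that did not pass (edgeR adjusted p = 0.087). It did pass without DMSO replicate 2 (adjusted p = 0.038) and after the length and GC correction (adjusted p = 0.015). In all, 7 of 10 tested fibrillar genes rose and 2 fell, with a median log2 fold change of 0.76. Of all tested genes, 27.6% rose and 28.5% fell.

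**Figure D2:**
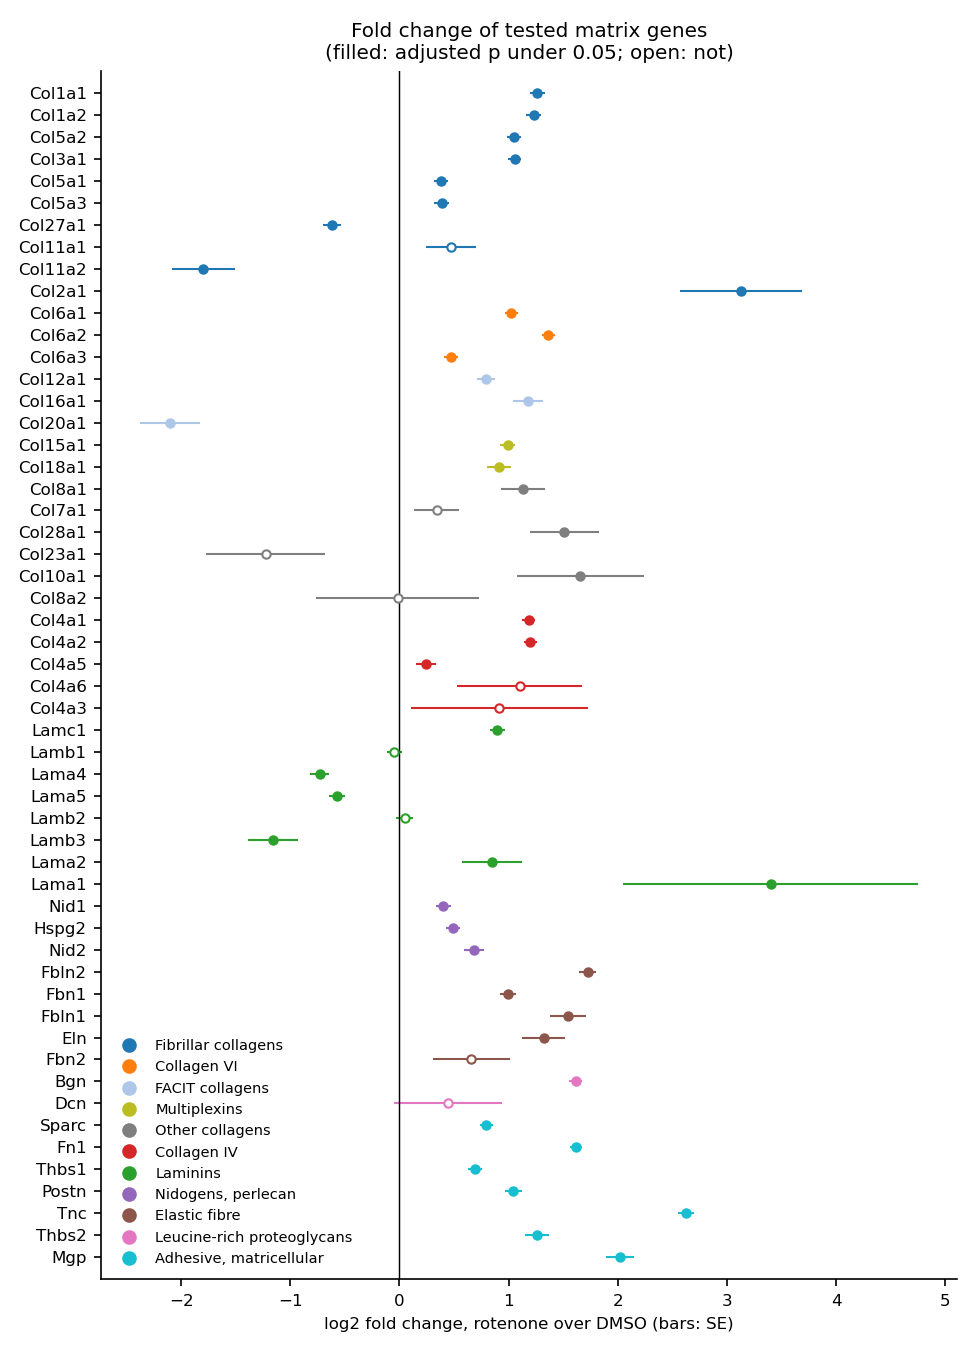
Log2 fold change of rotenone over DMSO for tested matrix genes, with bars for the standard error, coloured by class. Filled points passed an adjusted p of 0.05 and open points did not. Col9a3, with 0 counts in the rotenone library, is left out. The falls of Col11a2, Col20a1 and Lamb3 exceed 2-fold.

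Among basement membrane genes, 3 of 5 tested collagen IV genes and 3 of 3 linkers rose, where 27.6% of all tested genes rose. Laminin chains went both ways, and no test was made between these groups. Col4a1 went from 602, 564 and 600 CPM in DMSO replicates 1, 2 and 3 to 1339 CPM with rotenone, and Col4a2 from 297, 276 and 298 CPM to 667 CPM. Both rotenone values were above all DMSO values, with log2 fold changes of 1.19 ± 0.06 and 1.20 ± 0.06 (edgeR adjusted p = 9.5e-12 and 1.3e-11). Per kb, the level of Col4a1 over Col4a2 was 1.98, 1.99 and 1.97 in the DMSO libraries and 1.96 in the rotenone library. The annotated exons of the pair share 22 bases on opposite strands, and the sources used here do not say whether reads were counted by strand. The same limit holds for members with larger overlaps with a listed gene on the opposite strand. These are Nid2 with Rtraf (437 bases, 8.45% of its exon bases), Fn1 with Apol7d (292 bases, 2.5%) and Col9a3 with Tcfl5 (234 bases, 6.07%). Members also overlapped opposite-strand genes that are not among the genes listed. The largest such overlap was that of Fbn1 with Gm9913 (2442 bases, 20.1% of the Fbn1 exon bases).

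Minor collagen IV chains changed less clearly. Col4a5, which forms other type IV trimers, had 51.0, 46.0 and 51.7 CPM in DMSO and 58.6 CPM with rotenone, a log2 fold change of 0.24 ± 0.09 (edgeR adjusted p = 0.034). That call was lost in 8 of 16 alternative settings. Among them were scaling by library size only (0.12, edgeR adjusted p = 0.28) and upper quartile scaling (0.20, edgeR adjusted p = 0.076). It was also lost without DMSO replicate 2 (0.19). The ratio of Col4a1 to Col4a5 per kb went from 11.8 ± 0.3 (SD, n = 3) to 22.6. Col4a6 and Col4a3 lay under 2 CPM in every library and did not pass (1.10 ± 0.57 and 0.91 ± 0.81). After the length and GC correction Col4a6 did pass (1.41, edgeR adjusted p = 0.044).

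Laminin chains gave 3 rises and 3 falls among 9 tested, or 33.3% each, near the 27.6% and 28.5% of all tested genes. Without Lama1, which passed the filter through the rotenone library only, 2 of 8 rose and 3 fell, with a median log2 fold change of -0.22. The 9 had a median log2 fold change of -0.05 that turned to 0.11 after the length and GC correction. Lamc1, the gamma1 chain shared by most laminins, rose from 315, 293 and 331 CPM to 583 CPM (0.90 ± 0.07; edgeR adjusted p = 2.2e-09). Lama4, the alpha4 chain of laminins found around fat cells and vessels, fell from 194, 165 and 177 CPM to 108 CPM (-0.73 ± 0.09; edgeR adjusted p = 9.0e-07). Lama5, the alpha5 chain widespread in adult basement membranes, fell from 131, 130 and 126 CPM to 86.5 CPM (-0.57 ± 0.08; edgeR adjusted p = 2.7e-06). For Lamc1, Lama4 and Lama5 the rotenone library lay outside the DMSO range. After the length and GC correction Lama5 stood at -0.06 with an adjusted p of 0.51, so its fall was not called there.

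The beta1 and beta2 chain genes, Lamb1 and Lamb2, lay within the DMSO range. Lamb1 had 286, 263 and 283 CPM in DMSO and 268 CPM with rotenone (log2 fold change -0.05 ± 0.07; edgeR adjusted p = 0.57), a value of -0.17 that passed with library size scaling (adjusted p = 0.046) and of 0.11 after the length and GC correction. Lamb2 had 100.2, 108 and 109.8 CPM and 109.8 CPM (0.05 ± 0.08, and -0.07 with library size scaling). Against Lamc1, per kb, Lama4 went from 0.72 ± 0.05 (SD, n = 3) to 0.23, Lama5 from 0.28 ± 0.02 to 0.099, Lamb1 from 1.17 ± 0.04 to 0.61 and Lamb2 from 0.46 ± 0.04 to 0.26. All 4 ratios to the gamma1 chain were thus lower in the rotenone library than in any DMSO library.

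Among the scarcer laminin genes, Lamb3, a chain of epithelial laminin, fell from 21.4, 14.9 and 14.7 CPM to 7.63 CPM (-1.16 ± 0.23; edgeR adjusted p = 0.00057). Lama2, the alpha2 chain of muscle and nerve, rose from 3.78, 2.98 and 2.66 CPM to 5.66 CPM (0.85 ± 0.28; edgeR adjusted p = 0.014), a call lost with DESeq2. Lama1 had 0, 3 and 1 counts in DMSO and 11 counts with rotenone. Its call was lost without DMSO replicate 1, with DESeq2 and against a 1.5-fold change. Without DMSO replicate 2 or 3 it had too few counts to be tested.

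**Figure D3:**
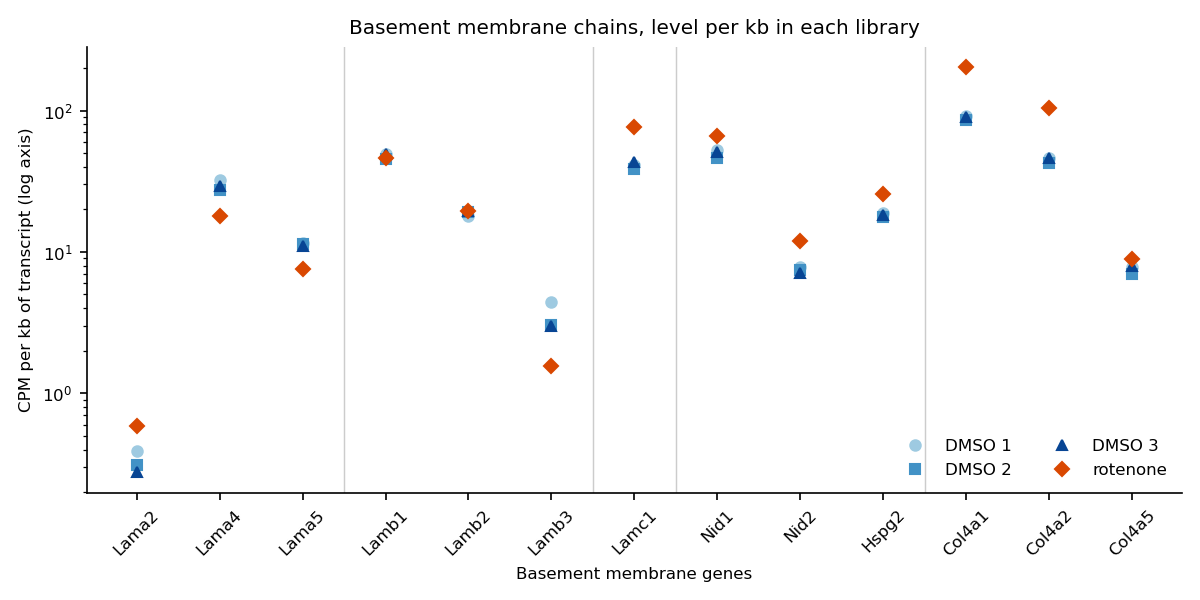
Level of basement membrane genes in each library, in CPM per kb of longest transcript on a log axis, with grey lines between alpha, beta and gamma laminin chains, linkers and collagen IV. The rotenone library lies above the DMSO libraries for Lama2, Lamc1, the linkers and collagen IV and below them for Lama4, Lama5 and Lamb3.

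All 3 linker genes rose, where 27.6% of all tested genes rose. Nid1, encoding nidogen-1, which bridges laminin and collagen IV, went from 318, 282 and 313 CPM to 402 CPM (0.40 ± 0.07; edgeR adjusted p = 8.0e-05). Nid2 rose by 0.68 ± 0.10 and Hspg2, which encodes perlecan, rose from 269, 252 and 258 CPM to 365 CPM, by 0.49 ± 0.06, a value of 1.01 after the length and GC correction. For each linker the rotenone library was the highest of the 4.

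Side by side, 7 of 10 fibrillar genes and 9 of 17 basement membrane genes rose, with 2 and 3 falls, where 27.6% of all tested genes rose and 28.5% fell. Without Lama1 the basement membrane count was 8 of 16 and its median 0.45. The class medians over all tested members were 0.76 and 0.49. The summed level went from 2641 ± 108 CPM (SD, n = 3) to 5408 CPM for fibrillar genes, 2.05 times the DMSO mean. For basement membrane genes it went from 2557 ± 103 CPM to 4064 CPM, 1.59 times. Within the latter, collagen IV summed to 2.22 times its DMSO mean, the linkers to 1.38 times and the laminins to 1.14 times. On this scale all genes summed to 1.09 times their DMSO mean. Lamc1 alone went from a DMSO mean of 313 CPM to 583 CPM, while the laminin sum went from 1027 to 1171 CPM. Col1a1 and Col1a2 made up most of the fibrillar sum, with DMSO means of 883 and 710 CPM and 2121 and 1666 CPM with rotenone. No test was made of the difference between classes, whose members are not replicates. The log2 fold changes of Col4a1 and Col4a2 (1.19 and 1.20) lay close to those of Col1a1 and Col1a2 (1.26 and 1.23).

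**Figure D4:**
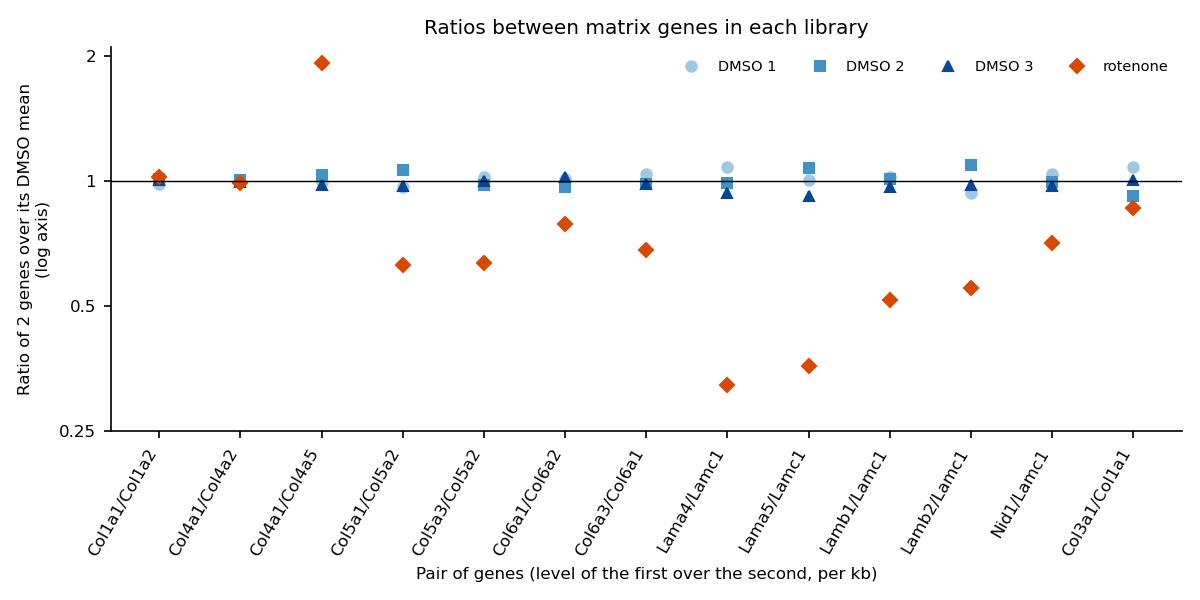
Ratio of pairs of matrix genes in each library, per kb of longest transcript, divided by its mean over the DMSO libraries (log axis). Col1a1/Col1a2 and Col4a1/Col4a2 stay close to 1 in the rotenone library, while Lama4/Lamc1 and Lama5/Lamc1 drop to under 0.5 of their DMSO means.

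Type VI collagen, a beaded filament network next to basement membranes that is abundant in fat, was higher in its 3 expressed chains. Col6a1 went from 931, 920 and 967 CPM to 1912 CPM (1.03 ± 0.06; edgeR adjusted p = 5.0e-11). Col6a2 rose further, from 432, 446 and 443 CPM to 1135 CPM (1.37 ± 0.06), and Col6a3 less, from 494, 461 and 485 CPM to 667 CPM (0.47 ± 0.06, and 0.78 after the length and GC correction). Their products assemble into one trimer, and per kb the ratio of Col6a3 to Col6a1 went from 0.21 ± 0.01 (SD, n = 3) to 0.14. Col6a4, Col6a5 and Col6a6 had at most 7 counts in any library and were not tested.

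Both multiplexins, collagens of the basement membrane zone, rose. Col15a1 went from 280, 254 and 283 CPM to 542 CPM (0.99 ± 0.07; edgeR adjusted p = 4.7e-10), and Col18a1, whose C-terminal end is the source of endostatin, rose by 0.91 ± 0.11. Collagens that decorate fibrils, the FACIT class, were divided: Col12a1 and Col16a1 rose by 0.79 ± 0.09 and 1.18 ± 0.13, whereas Col20a1 fell from 7.97, 8.34 and 7.19 CPM to 1.82 CPM (-2.10 ± 0.27; edgeR adjusted p = 2.6e-06). Col9a3 had 6, 15 and 3 counts in DMSO and 0 with rotenone and did not pass (edgeR adjusted p = 0.093), except with the coefficient of variation of 20% assumed.

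In the remaining collagens, Col8a1, a short-chain collagen of vessel walls, rose from 20.7, 31.3 and 27.6 CPM to 58.2 CPM (1.13 ± 0.20; edgeR adjusted p = 0.0026), which leaving out DMSO replicate 3 brought to an adjusted p of 0.11. Col28a1 rose by 1.51 ± 0.32 and Col10a1, a marker of hypertrophic cartilage, by 1.66 ± 0.58, both from under 2 CPM; the call for Col10a1 was lost with DESeq2 (adjusted p = 0.051). Col7a1, Col23a1 and Col8a2 did not pass, with values of 0.34 ± 0.20, -1.23 ± 0.54 and -0.02 ± 0.75. Col23a1 had log2 fold changes of -1.34, -1.08 and -1.25 without DMSO replicate 1, 2 and 3. Col7a1 passed after the length and GC correction (0.86, edgeR adjusted p = 0.0017). Col23a1 passed with library size scaling (edgeR adjusted p = 0.041) and with genes averaging under 1 CPM left out (adjusted p = 0.048).

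Adhesive and matricellular proteins, which link cells to the matrix or tune its signals, rose in 7 of 7 cases, where 27.6% of all tested genes rose. With a coefficient of variation of 20% assumed, 5 of the 7 were called higher, where 9.57% of all tested genes were. Tnc (chromosome 4, 63959785 to 64047015), encoding tenascin-C, a protein of wounds and developing tissue, went from 42.2, 49.2 and 46.5 CPM to 283 CPM. Its log2 fold change of 2.62 ± 0.08 (edgeR adjusted p = 1.7e-15) was the highest among members with a mean of at least 5 CPM. Mgp, an inhibitor of calcification, rose from 14.2, 18.8 and 14.7 CPM to 64.4 CPM (2.02 ± 0.13; edgeR adjusted p = 2.7e-10). Fn1 (chromosome 1, 71585520 to 71653200), encoding the cell-binding protein fibronectin, held 623, 635 and 622 CPM in DMSO and 1922 CPM with rotenone (edgeR adjusted p = 4.3e-14).

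Sparc, a collagen-binding glycoprotein, had the highest level per kb of all members in DMSO, at 685 CPM per kb against 260 for Bgn, 229 for Col6a1 and 149 for Col1a1. It rose from 1560, 1567 and 1596 CPM to 2735 CPM (0.80 ± 0.06; edgeR adjusted p = 1.4e-09). Postn (periostin), Thbs1 and Thbs2 (thrombospondins) rose by 1.04 ± 0.08, 0.69 ± 0.07 and 1.26 ± 0.11. In all 7 genes the rotenone library lay above every DMSO library.

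Elastic fibres consist of elastin on a scaffold of fibrillin, with fibulins at their surface. Eln, the elastin gene, rose from 5.47, 4.71 and 4.83 CPM to 12.5 CPM (1.32 ± 0.20; edgeR adjusted p = 1.4e-05). Fbn1, encoding fibrillin-1, went from 82.7, 83.5 and 76.7 CPM to 162 CPM (1.00 ± 0.07). The fibulin gene Fbln2 rose from 104.2, 126 and 113 CPM to 379 CPM (1.73 ± 0.08; edgeR adjusted p = 8.5e-12) and Fbln1 rose by 1.55 ± 0.17. Fbn2 did not pass at 0.66 ± 0.35 (edgeR adjusted p = 0.12). Its log2 fold change was 0.82 without DMSO replicate 1, 0.80 without replicate 2 and 0.41 without replicate 3.

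Small leucine-rich proteoglycans bind collagen fibrils and set their width. Bgn, the biglycan gene, stood at 608, 659 and 619 CPM in DMSO and at 1924 CPM with rotenone (edgeR adjusted p = 1.0e-13). Dcn, the decorin gene, had only 1.01, 1.76 and 1.01 CPM in DMSO and 1.72 CPM with rotenone (0.45 ± 0.49, not past the threshold). Lum, the lumican gene, had at most 2 counts in any library.

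The 17 members not tested had at most 10 counts in any library. They were Col4a4, Col6a4, Col6a5, Col6a6, Col9a1, Col9a2, Col13a1, Col14a1, Col17a1, Col19a1, Col22a1, Col24a1, Col25a1, Col26a1, Lama3, Lamc3 and Lum. Col9a1, Col22a1, Col25a1 and Col26a1 had 0 counts in every library, which is no more than not detected at this depth.

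Long transcripts were lower in general in the rotenone library. The median log2 fold change of tested genes went from 0.25 in the shortest decile by transcript length to -0.28 in the longest, while single DMSO libraries stayed between -0.02 and 0.03 across the deciles. Of the 56 tested members, 40 fell in the 2 longest deciles. With length and GC content corrected, 41 members rose and 4 fell. The share of all tested genes called under that correction is not given here. The medians were 1.06 for fibrillar and 0.78 for basement membrane genes, beside -0.009 for all tested genes.

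**Figure D5:**
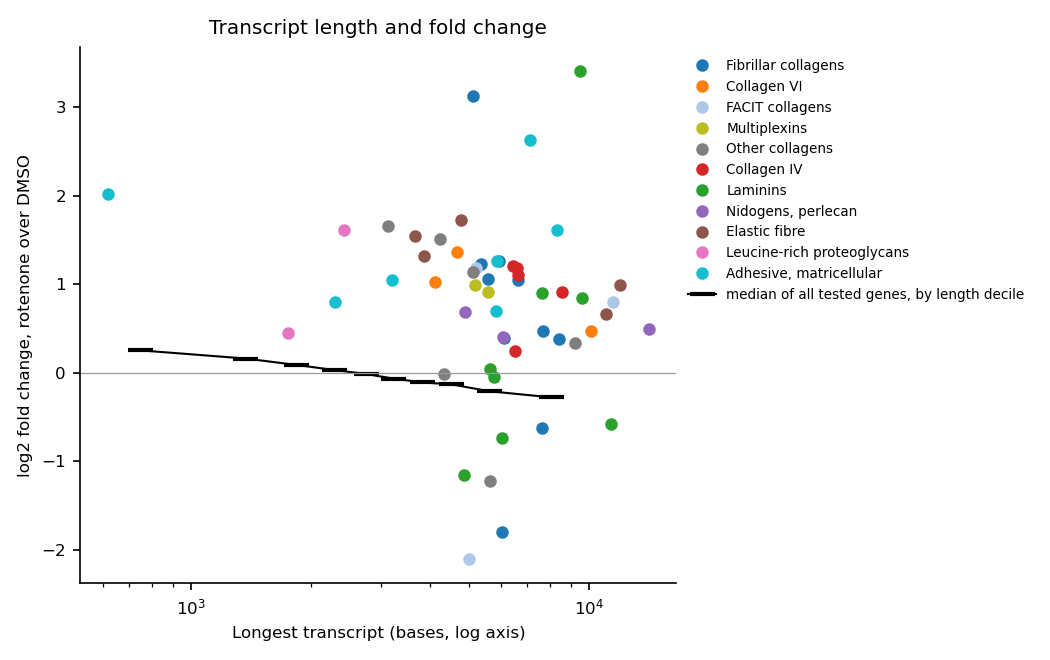
Longest transcript of tested matrix genes (bases, log axis) against its log2 fold change, coloured by class, with the median of all tested genes in each length decile in black. The black line drops from 0.25 to -0.28, and most matrix genes lie above it.

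Proteins that fold and modify collagen gave 9 rises and 5 falls among 17 tested genes, or 52.9% and 29.4%, where 27.6% of all tested genes rose and 28.5% fell. Fkbp10, an ER prolyl isomerase of procollagen, rose by 1.78 ± 0.10 and P4ha3, a prolyl 4-hydroxylase subunit, by 1.46 ± 0.25. The lysyl hydroxylase genes Plod2 and Plod1 fell, with log2 fold changes of -2.04 ± 0.09 and -1.64 ± 0.08. Of 12 tested genes of procollagen cleavage and crosslinking, 7 rose and 2 fell, or 58.3% and 16.7%. The largest rises were those of Adamts14, a procollagen N-proteinase (1.33 ± 0.26), and Pcolce2, an enhancer of procollagen C-proteinase (1.32 ± 0.24). The falls were those of the crosslinking enzymes Tgm2 (-0.51 ± 0.07) and Loxl2 (-0.48 ± 0.08).

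Receptors that bind the matrix gave 12 rises and 8 falls among 26 tested, or 46.2% and 30.8%, beside 27.6% and 28.5% of all tested genes. Itga11 and Itga5, the integrin chains for fibrillar collagen and for fibronectin, rose by 1.41 ± 0.15 and 1.35 ± 0.12. Itga10, another collagen-binding integrin chain, fell by 3.35 ± 0.67 on the log2 scale to 4 counts, and the syndecan gene Sdc4 fell by 1.83 ± 0.09. Genes of TGF-beta signalling, a main inducer of matrix genes, gave 4 rises and 4 falls among 17, or 23.5% each, near the shares of all tested genes. Ltbp1, a latency protein, and Tgfb3, a ligand, rose by 1.60 ± 0.19 and 1.43 ± 0.12, and the inhibitor Smad6 and the receptor Tgfbr1 gave -1.32 ± 0.15 and -1.17 ± 0.17.

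Marker lists for other cell types were also summed. Fewer cells of a type and less RNA per cell cannot be told apart in bulk RNA. Smooth muscle markers rose in 4 of 8 tested genes (Acta2, by 2.46 ± 0.06, Cnn1, by 2.85 ± 0.23, Tagln and Actg2) and fell in none, and the summed level of the 9 on the list went from a range of 440 to 503 CPM in DMSO to 1765 CPM. Myocd, which defines that lineage, had at most 4 counts in any library, and Myh11 gave -0.60 ± 0.36, not past the threshold. Preadipocyte and fibroblast markers rose in 5 of 9 tested genes and fell in 1, or 55.6% and 11.1% against 27.6% and 28.5% of all tested genes. Thy1 and Dlk1 rose by 1.71 ± 0.10 and 1.38 ± 0.10, and Pdgfra gave -1.11 ± 0.16. The list had summed levels of 1308 to 1352 CPM in DMSO and 1819 CPM with rotenone. Adipocyte markers fell in 7 of 10 and rose in 1, Lpl (0.53 ± 0.07). Cebpa, a transcription factor of fat cell differentiation, fell from 558 ± 23.9 CPM (SD, n = 3) to 112 CPM (-2.31 ± 0.08), and Lipe, the hormone-sensitive lipase gene, from 911 ± 35.2 CPM to 247 CPM (-1.88 ± 0.07). The list went from summed levels of 12226 to 13377 CPM to 11646 CPM. The part of these marker changes in the matrix gene changes was not tested.

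All 8 endothelial markers stayed under 1 CPM in every library, with Emcn, Tie1 and Erg at 0 counts, and summed to 0.449 to 0.657 CPM in DMSO and 1.08 CPM with rotenone. Macrophage markers summed to 4.05 to 4.45 CPM in DMSO and 16.7 CPM with rotenone, of which Cd68 gave 15.5 CPM, with Adgre1, Ptprc, C1qa and C1qb at 0 counts. Schwann cell markers summed to 10.6 to 12.6 CPM in DMSO and 6.35 CPM with rotenone, with Sox10 at 0 counts. Skeletal muscle markers summed to 0.225 to 0.338 CPM in DMSO and 6.65 CPM with rotenone, all of the latter from Acta1, with Myod1 and Myh1 at 0 counts.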

How the data were processed

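RNA-seq was available for 3 DMSO and 3 rotenone files. The authors deposited raw counts of reads per gene symbol, and per the submitters' processing notes used TopHat2 and mm10, with no version; no source used here gives the counting program, annotation or strand setting. Per the labels' protocols, Trizol RNA and a NEBNext Ultra kit were used. The rotenone files were identical and entered once. The series' design text calls the replicates independent without saying that they were separate cultures, so p-values measure the spread between DMSO libraries, which may be technical.

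Genes passing filterByExpr by group were kept (14709 genes, about 0.368 CPM in at least 1 library and the default minimum total count). Their counts were scaled by TMM and tested with edgeR 4.0.16 (R 4.3.3, robust quasi-likelihood F test, 2 residual degrees of freedom). Benjamini-Hochberg adjustment was made over all tested genes. SE is the log2 fold change divided by the square root of F. Alternatives used DESeq2 1.42.0, limma 3.58.1 (voom) and other settings, and the fits were tested on simulated data. Lengths, GC content and positions came from GENCODE M21 (GRCm38) and promoters from RefSeq (50 of 73 members had one). The longest transcript of each gene was used, and the correction took 8 length by 8 GC bins over 14216 genes. In each class the 4 most abundant members, those against the trend and those not past the threshold were named, with 11 fixed genes; in other lists, the 2 largest changes in each direction. Members and lists were chosen with earlier results of these data known. A planned comparison of collagen protein sequences was not made. The values of 1 tested member are not reported here or plotted, though it is included in the counts, medians and sums.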

Additional observations from a re-analysis of the deposited data

How the results depend on the processing

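Across 16 alternative settings, the count of members that rose lay between 27 (a test against a 1.5-fold change, or a coefficient of variation of 20%) and 41 (length and GC correction), and the count that fell between 3 (against a 1.5-fold change) and 8 (library size only). Rises of basement membrane genes came to 3 against a 1.5-fold change and 4 with the 20% coefficient of variation. With that coefficient of variation 9.57% of all tested genes rose and 14% fell. The shares of all tested genes called under the other alternatives are not given here, so those counts have no background beside them. Scaling by library size only moved the median of all genes from -0.04 to -0.16, the fibrillar median to 0.64 and the basement membrane median to 0.37. Those medians were 0.47 and 0.34 with no filter and 1.06 and 0.78 once length and GC were corrected. The basement membrane median was 0.32 with genes averaging under 1 CPM left out and 0.68 with the multiplexins added. Without 1 DMSO replicate, 36 to 38 members rose and 6 to 7 fell, with 7 to 8 rises of fibrillar and 7 to 8 of basement membrane genes, and medians of 0.74 to 0.82 and 0.41 to 0.52. The cause was not tested. Adjusted p-values of abundant members were far smaller without DMSO replicate 1 than in the main fit. Calls from that fit are therefore not on the same footing. Signs turned for 3 members that had not passed: Lamb1 (0.11 after the length and GC correction), Lamb2 (-0.0718 with library size only) and Col8a2 (0.0043 with median-ratio scaling, 0.0068 with DESeq2, 0.12 with limma-voom, 0.22 after the length and GC correction and from -0.2685 to 0.523 without 1 DMSO replicate). The depth limits the members under about 2 CPM, and 1 rotenone library gives no spread of its own. No paired analysis was possible because the rotenone files hold 1 library.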
